A study of Mus musculus with 6 samples.

Results

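Interferon-stimulated genes are the genes that cells switch on when an interferon reaches them, and 42 of them were followed here in F4/80+ cells of mouse bone marrow. They were chosen by gene symbol: type I effectors, RNA sensors, and guanylate binding proteins or immunity-related GTPases. Each of the 42 symbols had its own row in the deposited table of 11489 genes. The cells carried an eGFP reporter of Epor, the erythropoietin receptor gene, and were sorted for F4/80, a macrophage surface protein. The series is about erythroblastic island macrophages, around which erythroblasts mature. The sort gave 3 F4/80+ Epor-eGFP+ libraries, which are set against 3 F4/80+ Epor-eGFP- libraries. The sources used here give no strain, age, sex or treatment, and do not tie libraries to single animals. P-values therefore rest on differences among these libraries, and those can be technical. A reporter marks the activity of Epor and not an island as such. Libraries are called by the number in their column header, 0 to 2, and lists of 3 values follow libraries 0, 1 and 2.

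Type I interferons bind the receptor chains Ifnar1 and Ifnar2, whose kinases Jak1 and Tyk2 phosphorylate Stat2, among others. With Irf9 it takes part in a complex that binds the interferon-stimulated response element (ISRE) in promoters. Interferon gamma binds Ifngr1 and Ifngr2, and acts through the gamma-activated site (GAS) of promoters on many of the GTPase genes. Macrophages and monocytes keep these genes at a low tonic level without infection.

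Most interferon-stimulated genes were lower in Epor-eGFP+ cells. Of 41 members tested, 26 fell, 1 rose (Lgals3bp) and 14 had no call at a limma adjusted p of 0.05, where 26.3% of all 10964 tested genes fell and 22.7% rose. Their median log2 fold change was −0.53, beside −0.012 over all tested genes. Log2 fold changes are Epor-eGFP+ minus Epor-eGFP- on the log2(FPKM + 1) scale, where FPKM counts sequenced fragments relative to a gene's length and to the library's size. By this scale 8 members fell by at least 1 and 23 by at least 0.5, beside 4.39% and 14.8% of all tested genes. The steepest falls were in Oas3, Mx1, Zbp1, Ifi27l2a, Oasl2 and Samd9l, whose mean FPKM was 2.69 to 3.33 times lower in Epor-eGFP+ cells. Of all 42 members, 27 lay below every Epor-eGFP- library in each Epor-eGFP+ library and 1 lay above, beside 31.9% and 28.4% of all tested genes. With the libraries rescaled to a common total, 25 members fell and 2 rose, while over all genes the split moved to 3053 higher and 2082 lower, beside 2489 higher and 2883 lower as deposited. Without Epor-eGFP+ library 0, 16 members fell, the other 10 of the 26 lost their call, and the share of all tested genes that fell was 18.8%. With the column number as a block in the fit, 32 members fell and 2 rose, where 30.4% of all tested genes fell and 28.0% rose. The exact two-sided permutation test gave p = 0.1 for each member whose groups did not overlap, the smallest that 3 against 3 libraries allow.

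**Figure D1:**
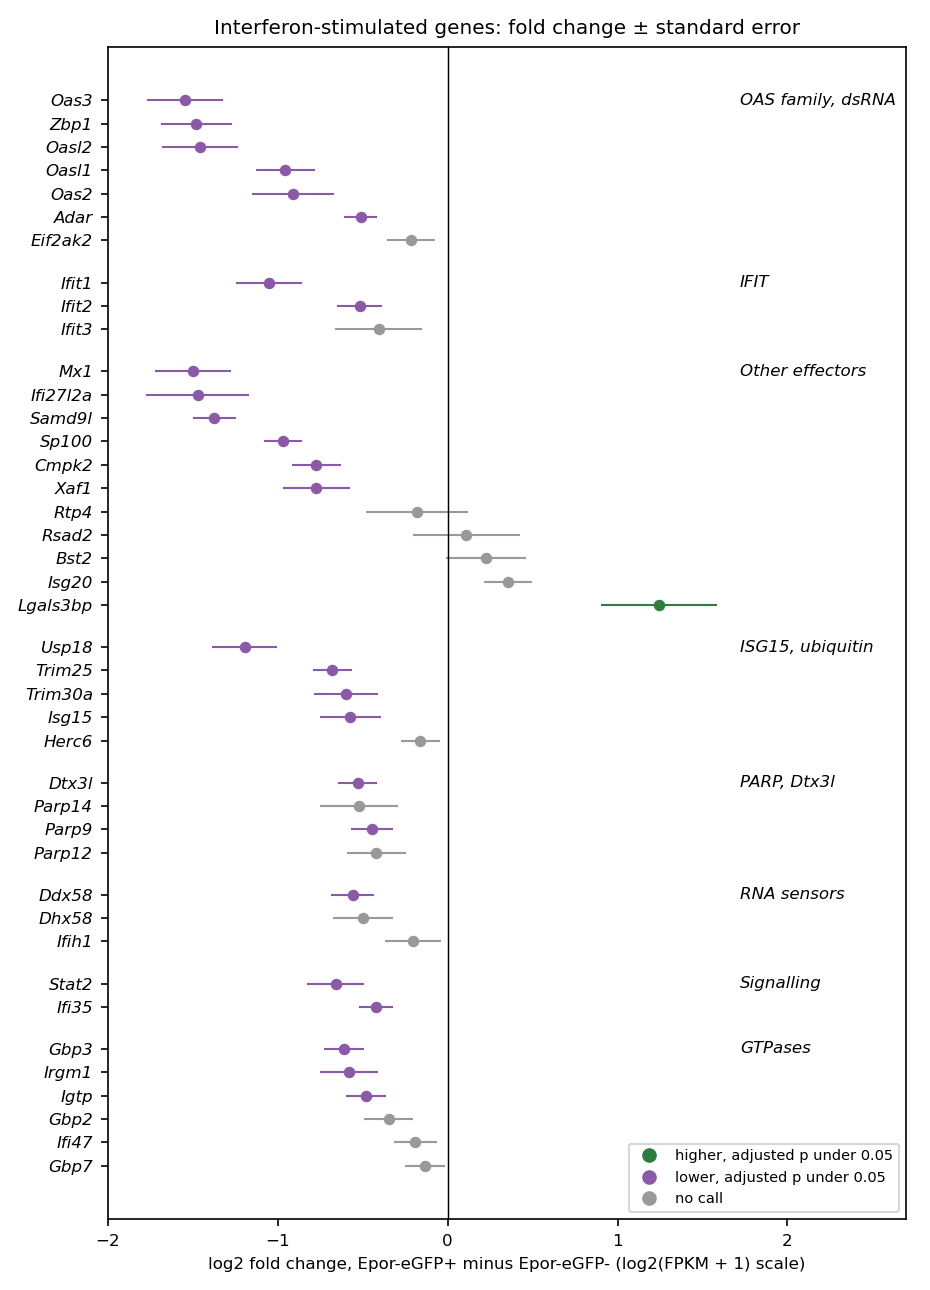
Log2 fold change of each of the 41 tested members, Epor-eGFP+ minus Epor-eGFP-, with bars of 1 standard error, in blocks by role. Purple points fell and the green point rose at an adjusted p below 0.05, and grey points had no call. All but 4 of the points lie left of 0, those right of it being Lgals3bp, Isg20, Bst2 and Rsad2.

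The OAS family and the other genes of the response to double-stranded RNA were low in Epor-eGFP+ cells as a block, with 6 of 7 members lower and 1 without a call (median −0.95). OAS enzymes make short oligoadenylates that switch on RNase L. Oas3 had 5.36, 7.22 and 5.33 FPKM in Epor-eGFP+ cells, against 14.4, 17.9 and 27.2 FPKM in Epor-eGFP- cells (log2 fold change −1.55, SE 0.22, adjusted p = 0.00212). No Epor-eGFP+ library reached the lowest Epor-eGFP- library. Oasl2, an OAS-like gene, had 8.10, 11.4 and 9.91 FPKM in Epor-eGFP+ cells, against 21.7, 26.3 and 40.2 FPKM in Epor-eGFP- cells (log2 fold change −1.46, SE 0.23, adjusted p = 0.00263). Oasl1, which in mice holds back translation of Irf7, had 2.995, 3.79 and 2.44 FPKM in Epor-eGFP+ cells, against 5.38, 7.26 and 8.08 FPKM in Epor-eGFP- cells (log2 fold change −0.95, SE 0.17, adjusted p = 0.00465). Zbp1, a sensor of left-handed nucleic acids that starts necroptosis, had 12.6, 15.9 and 12.995 FPKM in Epor-eGFP+ cells, against 32.4, 35.3 and 56.4 FPKM in Epor-eGFP- cells (log2 fold change −1.48, SE 0.21, adjusted p = 0.00190). The groups stood apart for all of these genes, and Epor-eGFP- library 2 was the highest in each. Oas2 averaged 3.67 ± 0.764 FPKM in Epor-eGFP+ cells and 7.998 ± 3.06 FPKM in Epor-eGFP- cells (SD, n = 3 each; log2 fold change −0.91, SE 0.24, adjusted p = 0.0188), and lost its call without Epor-eGFP+ library 0 (adjusted p = 0.0668). Adar, which edits adenosine to inosine in double-stranded RNA, averaged 18.5 ± 0.617 FPKM in Epor-eGFP+ cells and 26.9 ± 3.22 FPKM in Epor-eGFP- cells (SD, n = 3 each; log2 fold change −0.51, SE 0.09, adjusted p = 0.00502). Eif2ak2, the kinase PKR that stops translation on double-stranded RNA, had 10.4, 12.4 and 13.1 FPKM in Epor-eGFP+ cells, against 11.8, 13.7 and 16.8 FPKM in Epor-eGFP- cells. Its groups overlapped and it had no call (log2 fold change −0.21, SE 0.14, adjusted p = 0.246), but was lower for every column number and passed in the fit that takes this number as a replicate block (adjusted p = 0.0491).

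Of the IFIT genes, whose products bind foreign RNA and block its translation, 2 of 3 fell. Ifit1 had 2.22, 2.68 and 2.30 FPKM in Epor-eGFP+ cells, against 4.11, 7.33 and 7.15 FPKM in Epor-eGFP- cells (log2 fold change −1.05, SE 0.20, adjusted p = 0.00513). Ifit2 had 8.66, 10.4 and 9.21 FPKM in Epor-eGFP+ cells, against 11.4, 15.9 and 14.9 FPKM in Epor-eGFP- cells (log2 fold change −0.52, SE 0.13, adjusted p = 0.0175), and lost its call without Epor-eGFP+ library 0 (adjusted p = 0.0659) or Epor-eGFP- library 2 (0.0564). The 3 Epor-eGFP+ libraries lay below the 3 Epor-eGFP- libraries for both genes, with the lowest Epor-eGFP- value in library 0. Ifit3, the most abundant of the family, had 11.3, 13.3 and 19.3 FPKM in Epor-eGFP+ cells, against 13.3, 23.7 and 22.5 FPKM in Epor-eGFP- cells. Epor-eGFP+ library 2 lay within the range of the Epor-eGFP- libraries, and the gene had no call (log2 fold change −0.41, SE 0.26, adjusted p = 0.229; adjusted p = 0.0518 with the replicate block). Close paralogs such as Ifit3b and Ifit1bl1 are listed beside these genes, so the estimate of each gene singly is uncertain.

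The other antiviral effectors split, with 6 of 11 tested members lower, 1 higher and 4 without a call. Mx1, a dynamin-like GTPase that restricts influenza virus in mice, had 3.82, 6.24 and 4.04 FPKM in Epor-eGFP+ cells, against 11.5, 14.3 and 19.7 FPKM in Epor-eGFP- cells (log2 fold change −1.497, SE 0.22, adjusted p = 0.00233). Ifi27l2a, a small hydrophobic protein and the most abundant member in Epor-eGFP- cells, had 59.8, 66.2 and 82.4 FPKM in Epor-eGFP+ cells, against 128, 181 and 307 FPKM in Epor-eGFP- cells (log2 fold change −1.47, SE 0.30, adjusted p = 0.00732). Samd9l, an antiviral inhibitor of translation, had 12.1, 15.3 and 10.8 FPKM in Epor-eGFP+ cells, against 33.9, 36.2 and 32.6 FPKM in Epor-eGFP- cells (log2 fold change −1.37, SE 0.12, adjusted p = 0.000549). None of these groups overlapped, and Samd9l varied least within Epor-eGFP- cells. Sp100, a protein of nuclear PML bodies, had 45.7, 50.3 and 52.2 FPKM in Epor-eGFP+ cells, against 86.6, 93.7 and 113 FPKM in Epor-eGFP- cells (log2 fold change −0.97, SE 0.11, adjusted p = 0.00105). Cmpk2, a mitochondrial nucleotide kinase, averaged 13.8 ± 1.53 FPKM in Epor-eGFP+ cells and 24.4 ± 4.29 FPKM in Epor-eGFP- cells (SD, n = 3 each; log2 fold change −0.77, SE 0.14, adjusted p = 0.00501). Xaf1, which opposes an inhibitor of apoptosis, averaged 3.27 ± 0.526 FPKM in Epor-eGFP+ cells and 6.43 ± 2.09 FPKM in Epor-eGFP- cells (SD, n = 3 each; log2 fold change −0.77, SE 0.20, adjusted p = 0.0174), and lost its call without Epor-eGFP+ library 0 (adjusted p = 0.0631).

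Lgals3bp, a secreted glycoprotein that binds galectins, was the exception that rose. It had 139, 96.1 and 267 FPKM in Epor-eGFP+ cells, against 56.9, 62.9 and 73.1 FPKM in Epor-eGFP- cells (log2 fold change 1.24, SE 0.34, adjusted p = 0.0218). All 3 Epor-eGFP+ libraries lay above the Epor-eGFP- libraries, yet they spread widely, with library 2 highest and library 1 lowest. Vcam1, a marker of island macrophages, had the same order, at 417, 263 and 999 FPKM in Epor-eGFP+ cells, against 40.4, 30.5 and 24.5 FPKM in Epor-eGFP- cells. The order was not particular to Vcam1. In Epor-eGFP+ cells Bst2 and the summed tissue macrophage and erythroid markers, given below, had it too. The part of island macrophages or of other cells in the Lgals3bp difference was not tested. Without Epor-eGFP+ library 2 its log2 fold change was 0.84 (adjusted p = 0.0109). It lost its call without Epor-eGFP+ library 0 (adjusted p = 0.0528), Epor-eGFP- library 0 (0.0729) or Epor-eGFP- library 1 (0.0548).

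The 4 effectors without a call leaned both ways. Bst2, or tetherin, which holds budding virions at the cell surface, had 72.7, 62.6 and 106 FPKM in Epor-eGFP+ cells, against 58.3, 58.4 and 88.2 FPKM in Epor-eGFP- cells. It was higher in Epor-eGFP+ cells for every column number, had no call (log2 fold change 0.23, SE 0.23, adjusted p = 0.452) and passed with the replicate block (adjusted p = 0.0338). Isg20, an RNA exonuclease, had 17.8, 15.4 and 17.6 FPKM in Epor-eGFP+ cells, against 10.6, 13.1 and 15.8 FPKM in Epor-eGFP- cells. Its only overlap was between Epor-eGFP+ library 1 and Epor-eGFP- library 2 (log2 fold change 0.36, SE 0.14, adjusted p = 0.0748), and without Epor-eGFP- library 2 it passed (adjusted p = 0.0237). Rsad2, or viperin, which makes a chain-terminating nucleotide, had 14.8, 6.35 and 13.6 FPKM in Epor-eGFP+ cells, against 7.32, 11.3 and 12.1 FPKM in Epor-eGFP- cells. Epor-eGFP+ library 1 held its lowest value and Epor-eGFP+ library 0 its highest, and the log2 fold change of 0.11 (SE 0.31, adjusted p = 0.788) turned to −0.091 without Epor-eGFP+ library 0. Cmpk2, its neighbour on chromosome 12 (26469204 to 26479837, GRCm38, beside 26442746 to 26456452 for Rsad2), fell as given above. Rtp4 had 10.3, 9.17 and 18.5 FPKM in Epor-eGFP+ cells, against 10.6, 12.5 and 19.8 FPKM in Epor-eGFP- cells, with library 2 highest in both groups (log2 fold change −0.18, SE 0.30, adjusted p = 0.647). Its log2 fold change was 0.067 without Epor-eGFP- library 2 and 0.0036 without Epor-eGFP+ library 1. Ifi44 had 0.762, 0.878 and 1.80 FPKM in Epor-eGFP+ cells, against 0.519, 0.959 and 0.823 FPKM in Epor-eGFP- cells, a mean below the 1 FPKM needed for testing.

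**Figure D2:**
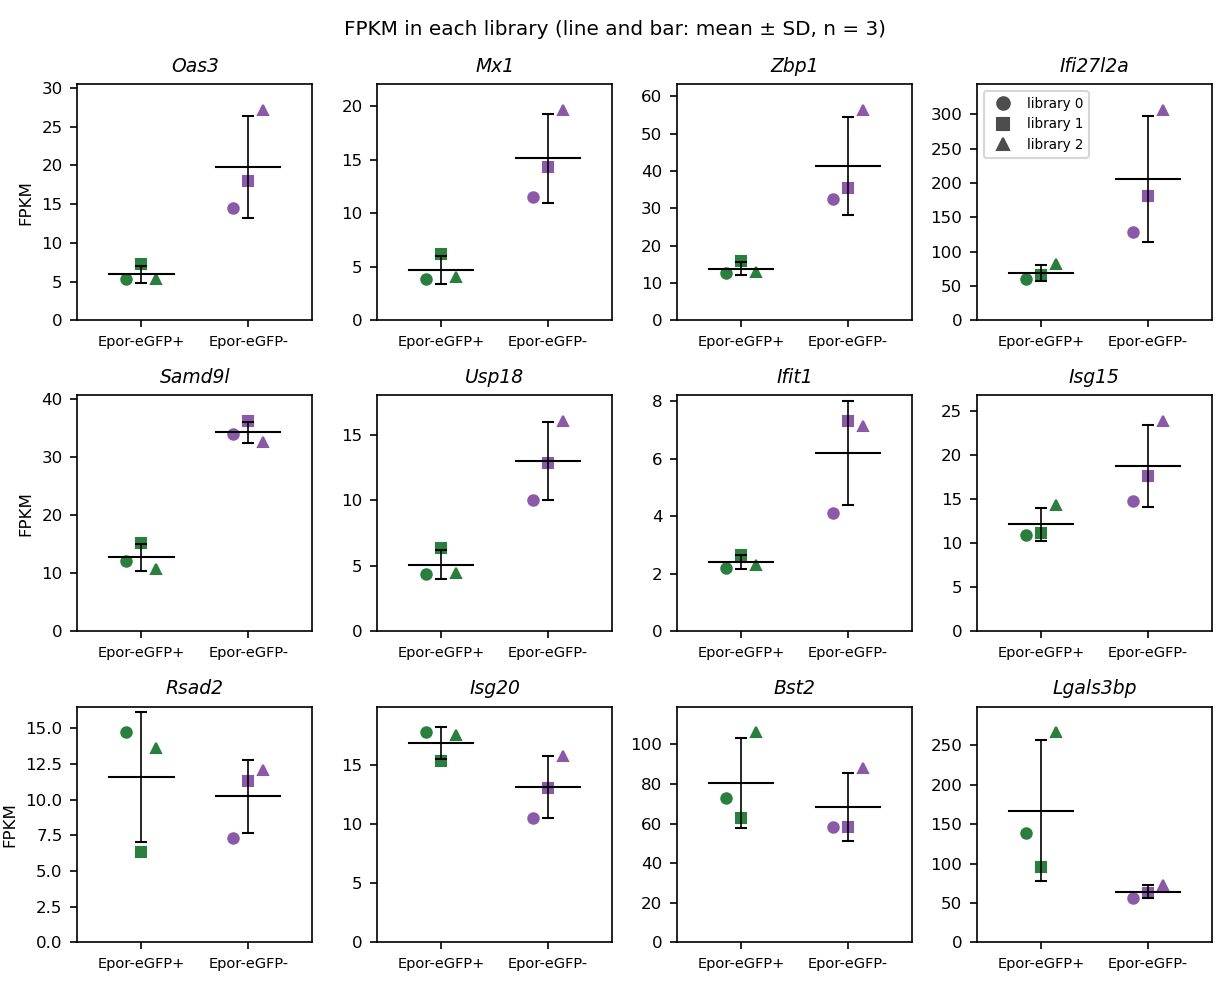
FPKM of 12 members in each library, with Epor-eGFP+ on the left (green) and Epor-eGFP- on the right (purple). Circles, squares and triangles are libraries 0, 1 and 2, and lines with bars are the mean ± SD (n = 3). The groups stand apart for Oas3, Mx1, Zbp1, Ifi27l2a, Samd9l, Usp18, Ifit1 and Isg15, overlap for Rsad2, Isg20 and Bst2, and stand apart the other way for Lgals3bp.

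Of the ISG15 pathway, in which a ubiquitin-like protein is joined to others, 4 of 5 members fell. Usp18, which removes Isg15 from proteins and also damps the type I receptor, had 4.42, 6.39 and 4.47 FPKM in Epor-eGFP+ cells, against 10.1, 12.9 and 16.1 FPKM in Epor-eGFP- cells (log2 fold change −1.19, SE 0.19, adjusted p = 0.00282). Isg15 itself, the ubiquitin-like modifier, had 11.01, 11.2 and 14.3 FPKM in Epor-eGFP+ cells, against 14.9, 17.6 and 23.9 FPKM in Epor-eGFP- cells (log2 fold change −0.57, SE 0.18, adjusted p = 0.0352). Both genes stood apart between the groups, narrowly for Isg15. Trim25, a ubiquitin ligase that acts on the RNA sensor RIG-I, had 17.3, 18.5 and 20.1 FPKM in Epor-eGFP+ cells, against 29.5, 26.8 and 35.3 FPKM in Epor-eGFP- cells (log2 fold change −0.68, SE 0.11, adjusted p = 0.00352). Trim30a, which restrains Toll-like receptor signalling in mice, had 17.7, 20.3 and 25.2 FPKM in Epor-eGFP+ cells, against 28.2, 27.97 and 41.9 FPKM in Epor-eGFP- cells (log2 fold change −0.60, SE 0.19, adjusted p = 0.0345). Trim30a has close paralogs, so its value is uncertain singly. Herc6, the ligase for Isg15 in mice, had 3.59, 4.28 and 4.58 FPKM in Epor-eGFP+ cells, against 4.15, 4.89 and 5.21 FPKM in Epor-eGFP- cells. The groups of Herc6 overlapped and it had no call (log2 fold change −0.16, SE 0.11, adjusted p = 0.283). Isg15 lost its call without Epor-eGFP+ library 0 (adjusted p = 0.112), Epor-eGFP+ library 1 (0.0897), Epor-eGFP- library 1 (0.0650) or Epor-eGFP- library 2 (0.0721). Trim30a lost its call without Epor-eGFP+ library 0 (adjusted p = 0.114), Epor-eGFP+ library 1 (0.0789), Epor-eGFP- library 0 (0.0523) or Epor-eGFP- library 2 (0.0697).

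Of the ADP-ribosyltransferase genes and Dtx3l, 2 of 4 fell and 2 had no call. Parp9 and the ubiquitin ligase Dtx3l act as a complex, and their genes share exon sequence on opposite strands. The library kit does not mark strand, so reads of that stretch cannot be told apart. Dtx3l had 14.3, 16.2 and 17.2 FPKM in Epor-eGFP+ cells, against 21.7, 21.5 and 27.1 FPKM in Epor-eGFP- cells (log2 fold change −0.53, SE 0.11, adjusted p = 0.00897). Parp9 had 10.3, 10.7 and 12.2 FPKM in Epor-eGFP+ cells, against 13.5, 14.7 and 18.3 FPKM in Epor-eGFP- cells (log2 fold change −0.44, SE 0.12, adjusted p = 0.0235), and lost its call without Epor-eGFP+ library 0 (adjusted p = 0.0849) or Epor-eGFP+ library 1 (0.0600). Parp14 had 13.2, 13.2 and 20.8 FPKM in Epor-eGFP+ cells, against 19.95, 18.9 and 30.2 FPKM in Epor-eGFP- cells. Epor-eGFP+ library 2 lay within the Epor-eGFP- range, with no call (log2 fold change −0.52, SE 0.23, adjusted p = 0.0979), an adjusted p of 0.0243 without that library and of 0.00220 with the replicate block. Parp12 had 9.89, 9.94 and 14.5 FPKM in Epor-eGFP+ cells, against 13.7, 14.1 and 18.7 FPKM in Epor-eGFP- cells. It showed the same pattern with no call (log2 fold change −0.42, SE 0.17, adjusted p = 0.0858), an adjusted p of 0.0167 without Epor-eGFP+ library 2 and of 0.00463 with the replicate block.

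Of the RIG-I family of RNA sensors, 1 of 3 fell. Ddx58, which encodes RIG-I, the sensor of RNA ends, had 9.88, 9.76 and 13.2 FPKM in Epor-eGFP+ cells, against 16.2, 15.3 and 17.9 FPKM in Epor-eGFP- cells (log2 fold change −0.56, SE 0.13, adjusted p = 0.0107). Dhx58, which encodes LGP2, a regulator of the family, had 13.4, 11.8 and 17.3 FPKM in Epor-eGFP+ cells, against 18.8, 17.3 and 25.2 FPKM in Epor-eGFP- cells. No Epor-eGFP+ value of either gene reached the Epor-eGFP- values. For Dhx58 this was narrow, at 17.29 FPKM in Epor-eGFP+ library 2 and 17.34 FPKM in Epor-eGFP- library 1. Dhx58 had no call (log2 fold change −0.50, SE 0.18, adjusted p = 0.0521). It passed without Epor-eGFP+ library 2 (adjusted p = 0.0201), without Epor-eGFP- library 1 (0.0468) and with the replicate block (0.00250). Ifih1, which encodes MDA5, the sensor of long double-stranded RNA, had 7.87, 8.86 and 11.8 FPKM in Epor-eGFP+ cells, against 9.33, 10.9 and 12.9 FPKM in Epor-eGFP- cells. Its groups overlapped with no call (log2 fold change −0.21, SE 0.16, adjusted p = 0.332), and with the replicate block its adjusted p was 0.0457.

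Stat2, the signalling member, had 12.9, 13.4 and 15.2 FPKM in Epor-eGFP+ cells, against 21.2, 17.9 and 29.1 FPKM in Epor-eGFP- cells (log2 fold change −0.66, SE 0.17, adjusted p = 0.0172). Ifi35 had 18.8, 20.7 and 21.1 FPKM in Epor-eGFP+ cells, against 24.9, 26.4 and 31.1 FPKM in Epor-eGFP- cells (log2 fold change −0.42, SE 0.10, adjusted p = 0.0122). Both groups of values stood apart, and both genes lost their call without Epor-eGFP+ library 0 (adjusted p = 0.0623 for Stat2 and 0.0526 for Ifi35).

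The GTPases, which coat or break the vacuoles of intracellular microbes, had 3 of 6 members lower, 3 without a call and no log2 fold change beyond −0.61. Gbp3, a guanylate binding protein, had 11.5, 11.1 and 12.3 FPKM in Epor-eGFP+ cells, against 17.5, 15.8 and 21.8 FPKM in Epor-eGFP- cells (log2 fold change −0.61, SE 0.12, adjusted p = 0.00619). Irgm1, a regulator of the other immunity-related GTPases, had 16.8, 19.3 and 20.1 FPKM in Epor-eGFP+ cells, against 22.8, 27.1 and 36.99 FPKM in Epor-eGFP- cells (log2 fold change −0.58, SE 0.17, adjusted p = 0.0283). Igtp had 11.2, 12.2 and 14.1 FPKM in Epor-eGFP+ cells, against 16.6, 16.4 and 20.5 FPKM in Epor-eGFP- cells (log2 fold change −0.48, SE 0.12, adjusted p = 0.0151). These 3 genes stood apart between the groups. Irgm1 lost its call without Epor-eGFP+ library 0 (adjusted p = 0.0970), Epor-eGFP+ library 1 (0.0550) or Epor-eGFP- library 1 (0.0548), and Igtp, whose exons overlap those of Irgm2, without Epor-eGFP+ library 0 (0.0592). Ifi47, the most abundant of them, had 29.7, 32.3 and 33.4 FPKM in Epor-eGFP+ cells, against 29.98, 38.3 and 41.8 FPKM in Epor-eGFP- cells. Its lowest Epor-eGFP- value lay among the Epor-eGFP+ values and it had no call (log2 fold change −0.19, SE 0.13, adjusted p = 0.250), with an adjusted p of 0.0426 without Epor-eGFP- library 0. Gbp2 had 11.4, 12.9 and 16.6 FPKM in Epor-eGFP+ cells, against 15.8, 16.96 and 19.5 FPKM in Epor-eGFP- cells, without a call (log2 fold change −0.34, SE 0.14, adjusted p = 0.0857), and an adjusted p of 0.0146 without Epor-eGFP+ library 2 and of 0.0117 with the replicate block. Gbp7 had 6.005, 6.74 and 6.67 FPKM in Epor-eGFP+ cells, against 5.97, 7.72 and 8.05 FPKM in Epor-eGFP- cells, also without a call (log2 fold change −0.13, SE 0.12, adjusted p = 0.372).

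Promoter sequence was looked at because most members moved together. RefSeq promoter windows (GRCm38.p6, 250 bases before to 50 after a start) were at hand for 33 of the 42 members. The ISRE core, searched as TTTC, any 2 bases and TTTC (on the other strand GAAA, any 2 bases and GAAA), was in a window of 16 of these 33 genes (48.5%), beside 3.99% of all 27025 genes with a window. It was in 9 of 20 members that fell, in 7 of 12 without a call or test and not in the window of Lgals3bp. The GAS motif, searched as TTC, any 3 bases and GAA, which reads the same on both strands and can overlap the ISRE core, was in 8 of the 33 (24.2%), beside 9.55% of all genes. Among the GTPases, 5 of 6 (83.3%) held the ISRE core, beside 11 of the other 27 members (40.7%), and 2 (33.3%) held the GAS motif, beside 6 of the other 27 (22.2%). These differences were not tested. A match is not a binding site, and the windows were not chosen for activity in these cells. The sequences below show how the matches lie in 4 of the members that fell (Oas3, Ifit1, Isg15 and Igtp) and in Rsad2, which had no call. They run 5′ to 3′ along the gene, with matches in capitals.
Oas3, chr5:120777715-120777744, minus strand: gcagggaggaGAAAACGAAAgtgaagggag
Ifit1, chr19:34640785-34640814, plus strand: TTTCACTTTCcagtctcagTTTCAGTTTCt
Isg15, chr4:156200819-156201068, minus strand: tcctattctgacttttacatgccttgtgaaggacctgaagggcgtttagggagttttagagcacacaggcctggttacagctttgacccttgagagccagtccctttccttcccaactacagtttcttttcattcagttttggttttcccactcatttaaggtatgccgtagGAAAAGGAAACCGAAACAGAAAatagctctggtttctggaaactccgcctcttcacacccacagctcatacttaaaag
Igtp, chr11:58199306-58199555, plus strand: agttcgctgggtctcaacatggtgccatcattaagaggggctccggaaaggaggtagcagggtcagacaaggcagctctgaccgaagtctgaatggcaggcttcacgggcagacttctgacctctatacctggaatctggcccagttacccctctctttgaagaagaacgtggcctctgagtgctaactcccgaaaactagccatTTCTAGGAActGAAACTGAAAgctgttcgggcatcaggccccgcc
Rsad2, chr12:26456453-26456702, minus strand: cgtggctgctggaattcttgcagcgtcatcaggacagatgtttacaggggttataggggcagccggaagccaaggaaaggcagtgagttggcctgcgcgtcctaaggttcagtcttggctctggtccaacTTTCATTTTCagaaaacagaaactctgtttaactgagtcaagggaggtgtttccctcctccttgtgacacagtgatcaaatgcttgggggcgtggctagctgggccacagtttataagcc
The ISRE core began 75 bases before the start in Oas3, 104 and 85 before it in Ifit1, 34 in Igtp and 120 in Rsad2. In Isg15, 3 matches overlapped, beginning 78, 72 and 66 bases before the start. Igtp also held a GAS match, which began 45 bases before the start.

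The members varied in a common way between libraries of a group. Epor-eGFP+ library 2 was the highest of its group for 29 of 42 members, and Epor-eGFP- library 2 for 37, beside 34.0% and 37.8% of all 11489 genes. In Epor-eGFP+ cells the median FPKM of the members was 11.3, 12.0 and 14.1, against 16.0, 17.2 and 22.1 in Epor-eGFP- cells. Comparing libraries of the same column number, 36 of the 42 members were lower in the Epor-eGFP+ library for all 3 numbers and 3 (Isg20, Bst2 and Lgals3bp) were higher for all 3. That count was not made over all genes. The log2 fold change was below 0 for 37 of 41 tested members, beside 5599 of all 10964 tested genes. Another 11 members, Oas3, Oasl1, Oasl2, Zbp1, Ifit1, Ifit2, Mx1, Cmpk2, Samd9l, Usp18 and Gbp7, were highest in Epor-eGFP+ library 1 and not in library 2. Among these, all but Gbp7 fell.

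**Figure D3:**
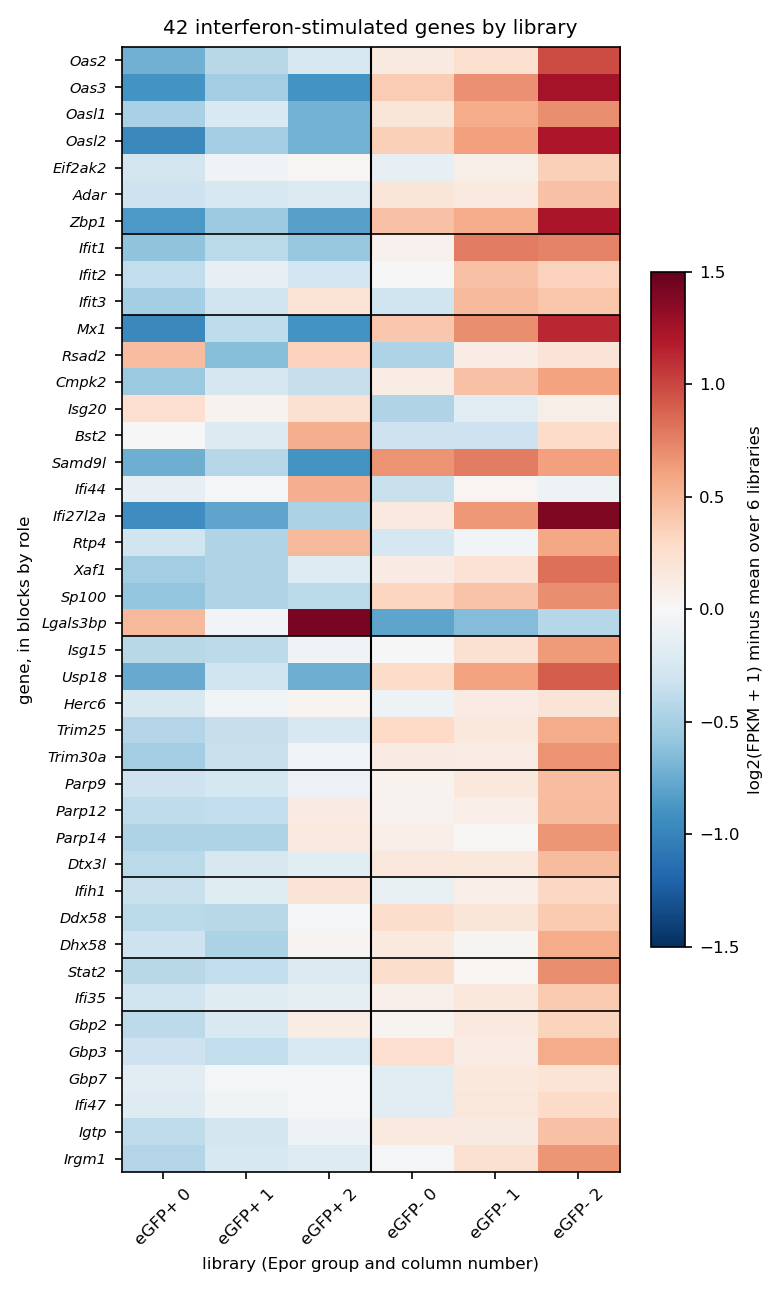
Log2(FPKM + 1) of the 42 members in each library minus the gene's mean over the 6 libraries, with Epor-eGFP+ libraries on the left and Epor-eGFP- on the right, in blocks by role. Red is above and blue below the gene's mean. Most rows are blue on the left and red on the right, often deepest in Epor-eGFP- library 2, and Lgals3bp runs the other way.

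Many other genes of the pathway were lower too. Of a list of 48, the 19 interferon ligand genes had no row under the symbols searched in the deposited table. Of the 29 tested, 16 fell, 13 had no call and 0 rose by limma (median −0.33). Over all 10964 tested genes, 26.3% fell and 22.7% rose (median −0.012). Without both libraries numbered 0, 2 of the 29 fell, beside 921 of all 10964 tested genes, so the list then held no larger share of falls. Its median there was −0.34, beside −0.011 over all tested genes. With all 6 libraries, 1 gene of the list was higher at an unadjusted p below 0.05. Of 6 receptor genes 3 fell: Ifngr2 (log2 fold change −0.78, SE 0.16, adjusted p = 0.00726), Ifnlr1 (log2 fold change −0.69, SE 0.15, adjusted p = 0.0103) and Ifnar1 (log2 fold change −0.33, SE 0.08, adjusted p = 0.0113). Ifnar2 averaged 79.2 ± 14.7 FPKM in Epor-eGFP+ cells and 99.8 ± 8.87 FPKM in Epor-eGFP- cells (SD, n = 3 each), without a call (log2 fold change −0.34, SE 0.14, adjusted p = 0.0821; adjusted p = 0.0130 with the replicate block). Il10rb, a chain shared with other cytokine receptors, averaged 66.02 ± 23.8 FPKM in Epor-eGFP+ cells and 40.2 ± 4.06 FPKM in Epor-eGFP- cells (SD, n = 3 each), without a call (adjusted p = 0.0634, and 0.0237 with the replicate block). The groups of Il10rb stood apart, with each Epor-eGFP+ library above the Epor-eGFP- libraries. Mavs, the adaptor of RIG-I and MDA5, averaged 19.1 ± 6.80 FPKM in Epor-eGFP+ cells and 13.5 ± 2.98 FPKM in Epor-eGFP- cells (SD, n = 3 each), without a call (adjusted p = 0.189, and 0.0247 with the replicate block).

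Among the kinases and transcription factors of the pathway, Irf9, a DNA-binding partner of Stat2, had 22.9, 20.2 and 27.9 FPKM in Epor-eGFP+ cells, against 40.1, 37.01 and 55.5 FPKM in Epor-eGFP- cells (log2 fold change −0.87, SE 0.18, adjusted p = 0.00705). Irf9 stood apart between the groups as Stat2 did. Tyk2 (log2 fold change −0.53, SE 0.09, adjusted p = 0.00324), Jak2 (log2 fold change −0.45, SE 0.11, adjusted p = 0.0122) and Jak1 (log2 fold change −0.44, SE 0.07, adjusted p = 0.00232) fell. Of 8 inhibitors of the pathway 4 fell (6 with the replicate block, adding Ptpn2 and Pias1), the largest falls being those of Socs1 (log2 fold change −0.66, SE 0.17, adjusted p = 0.0158), Socs3 (log2 fold change −0.66, SE 0.20, adjusted p = 0.0324) and the phosphatase gene Ptpn6 (log2 fold change −0.63, SE 0.08, adjusted p = 0.00116). Of 10 adaptors and kinases that lead to interferon production 5 fell (7 with the replicate block, adding Mb21d1 and Traf3), with Tmem173, which encodes STING (log2 fold change −0.79, SE 0.11, adjusted p = 0.00195), Myd88 (log2 fold change −0.77, SE 0.11, adjusted p = 0.00232) and Ticam1 (log2 fold change −0.43, SE 0.07, adjusted p = 0.00298) at the top.

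Markers of other cells moved with the groups. Of 8 monocyte markers (among them Ly6c2, Ccr2 and Fn1) 7 fell and none was at 0, and their summed FPKM was 2152, 2461 and 2018 in Epor-eGFP+ cells, against 3687, 3699.7 and 4795 in Epor-eGFP- cells. Of 8 neutrophil markers 8 fell, with sums of 13425, 16647 and 12725 in Epor-eGFP+ cells, against 36969.6, 32041 and 23468 in Epor-eGFP- cells. The 4 promyelocyte markers rose, with sums of 7926, 9353 and 7532 in Epor-eGFP+ cells, against 1484, 2673 and 1428 in Epor-eGFP- cells. Of 10 tissue macrophage markers 9 rose, the exception being Adgre1, which encodes F4/80, with sums of 3042, 1874 and 6707 in Epor-eGFP+ cells, against 278, 237 and 242 in Epor-eGFP- cells. Of 8 tested erythroid markers 5 rose, and all 8 with the replicate block, with sums of 554, 278 and 884 in Epor-eGFP+ cells, against 31.6, 18.7 and 293 in Epor-eGFP- cells. Eosinophil markers (2 rose and 2 fell of 6, with Prg2 listed at 0 in Epor-eGFP+ library 0), B lineage markers (1 of 5 rose) and plasmacytoid dendritic cell markers (0 of 3 tested with a call, 0 at an unadjusted p below 0.05, and with the replicate block Bst2 higher and Ly6d lower) had sums that overlapped between the groups. The eosinophil markers that rose were Epx and Prg3, and those that fell were Siglecf and Il5ra. The B lineage marker that rose was Jchain (log2 fold change 2.71, SE 0.47, adjusted p = 0.00400), whose groups stood apart. The other 4 B lineage markers had log2 fold changes below 0 and no call. Of 3 tested T and NK markers Ncr1 and Klrb1c fell and Nkg7 rose. Nkg7, which made up most of the sum of its list, had 229, 254 and 199 FPKM in Epor-eGFP+ cells, against 65.4, 87.6 and 45.9 FPKM in Epor-eGFP- cells, and both Nkg7 and that sum stood apart between the groups. The monocyte sum was highest in Epor-eGFP- library 2 and, among Epor-eGFP+ libraries, in library 1. Among Epor-eGFP+ libraries it was lowest in library 2, where 29 of the 42 interferon-stimulated genes were highest. Another 11 were highest in Epor-eGFP+ library 1. Among them were Oas3, Mx1, Zbp1, Oasl2, Samd9l, Usp18 and Ifit1, which all fell by at least 1 log2. Ifi27l2a, which also fell by at least 1 log2, was highest in Epor-eGFP+ library 2. In bulk libraries fewer cells of a type and less RNA per cell cannot be told apart, and the part of these cells in the falls of interferon-stimulated genes was not tested.

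**Figure D4:**
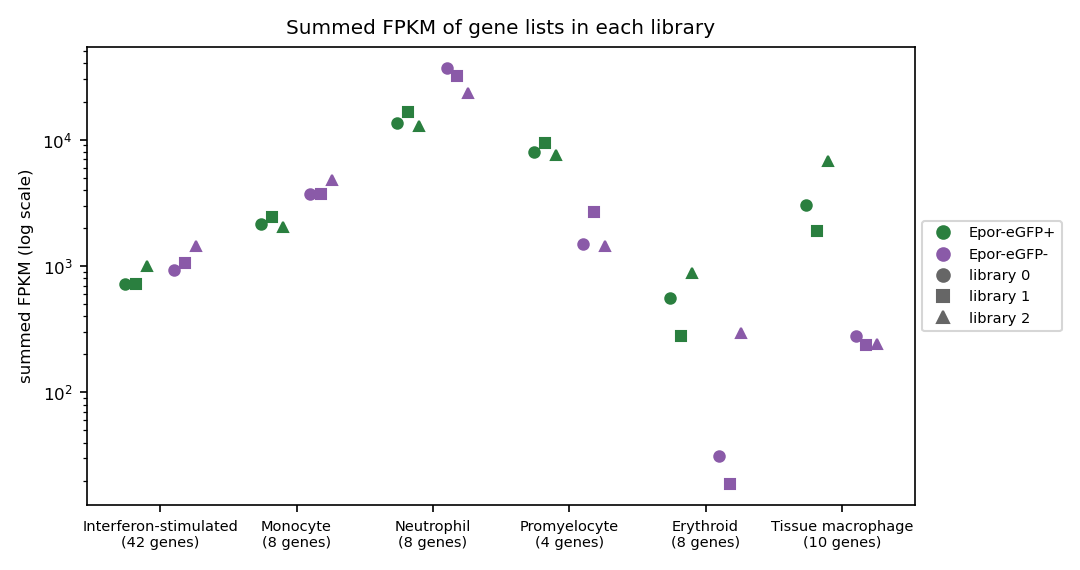
Summed FPKM of the 42 interferon-stimulated genes and of 5 marker lists in each library, on a log axis, with Epor-eGFP+ (green) left of Epor-eGFP- (purple) in each list and circles, squares and triangles for libraries 0, 1 and 2. The interferon-stimulated sum ran from 716 to 1005 FPKM in Epor-eGFP+ cells and from 929.8 to 1436 FPKM in Epor-eGFP- cells, so the sums overlapped. Lgals3bp, the 1 member called higher beside 26 called lower, made up 267 FPKM of the highest Epor-eGFP+ sum. It made up 56.9 FPKM of the lowest Epor-eGFP- sum. The median FPKM of the members did not overlap (11.3 to 14.1 in Epor-eGFP+ cells, 16.0 to 22.1 in Epor-eGFP- cells). Monocyte and neutrophil sums were lower and promyelocyte and tissue macrophage sums higher in every Epor-eGFP+ library.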

How the data were processed

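RNA of F4/80+ cells sorted from mouse bone marrow was measured in 3 Epor-eGFP+ and 3 Epor-eGFP- libraries, made with a TruSeq RNA kit per the labels' protocols. The deposited values are FPKM. The submitters' processing notes name Cufflinks 2.2.1, TopHat2 2.1.0, Trimmomatic 0.35, bcl2fastq 2.19.1.403 and mm10, without roles, and the sources used here give neither annotation nor filters. FPKM hold no read counts and their low values were not whole multiples of a read, so depth is unknown and no interval for counting error could be set. The lowest maximum of any gene was 1.00 FPKM. Total FPKM ran from 467176 to 519650 per library, and no 2 columns were identical.

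Headers number the columns 0 to 2 and the labels number samples 1 to 3, so columns were tied to groups only. A fit with limma 3.58.1 (R 4.3.3) on log2(FPKM + 1) covered the 10964 genes whose mean over the 6 libraries was 1 FPKM or more. Its only term was the group, and it used a mean-variance trend. Tests were two-sided, and the Benjamini-Hochberg adjustment ran over all these genes. Same-numbered libraries deviated together from their group means (correlations of 0.25, 0.38 and 0.35 for numbers 0, 1 and 2, all over 0.1). Between libraries of different numbers the correlations ran from −0.39 to 0.065. Deviations from a mean of 3 libraries are not independent, so these correlations cannot settle whether the numbers mark pairs. The numbers come from the column headers, and the sources used here do not name pairs. A fit with the number as a replicate block is given where it changes a call.

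Other settings varied the filter, the pseudocount, the scaling and the libraries. The fit was tested on simulated data. The members, role groups, pathway list and 9 lists of cell type markers were chosen with earlier results of these data known. Values in every library are given for up to 4 called members of each role with the largest change and for the most abundant one. Other members, the pathway genes Jak1, Ifnar2, Il10rb and Mavs, and those that only the block called were named after their values were seen. So were Vcam1, Nkg7, Jchain, the eosinophil markers named and the promoters shown. Motif matches came from RefSeq windows and gene positions from GENCODE M21 (GRCm38, the same build as mm10). The result of 1 pathway gene is not reported here.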

Additional observations from a re-analysis of the deposited data

How the results depend on the processing

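Over 16 other settings, no member that fell changed sign, and 11 of the 26 kept their call in every setting that tested them. Without genes whose mean was under 5 FPKM, 23 members fell, beside 2471 of all 8397 genes tested in that setting. The median of the members ran from −0.64 to −0.41 when single libraries or both libraries of a number were left out. In those settings the members that fell ran from 12 to 30 and those that rose from 0 to 2. The lowest counts came without both libraries numbered 0, where over all genes 921 fell and 492 rose. Over all genes the counts otherwise ran up to 2695 lower and 2479 higher with libraries left out, and 1634 rose without Epor-eGFP+ library 0. Pathway genes that fell ran from 2 to 17 and those that rose from 0 to 1. The 2 came without both libraries numbered 0, as 2 of 29 beside 921 of all 10964 tested genes.

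With the replicate block 32 members fell and 2 rose, as did 21 and 2 pathway genes. Under scaling to a common total or upper quartile 2 members rose, and under those scalings and quantile normalization 1 pathway gene rose. With single libraries left out, the log2 fold change of Rsad2 ran from −0.093 to 0.46 and that of Rtp4 from −0.47 to 0.067, with no call in any setting. Without both libraries numbered 0, Rsad2 stood at −0.29, and over all settings it reached 0.54. The cause of these moves was not tested. The number of libraries limits the precision.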
